A study of Mus musculus with 21 samples.

Results

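The genes described here are the odorant receptor genes of mouse chromosome 2 numbered from Olfr988 to Olfr1301, 225 in all, out of 1089 odorant receptor symbols and 22786 genes measured in both deposited tables. The rule uses symbol and number, with pseudogene symbols (suffix -ps) left out, and no measured value. Levels are in TPM, transcript abundance corrected for gene length, which sums to the same total in every library.

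The study sorted cells of the main olfactory epithelium, the sheet of the nasal cavity that holds the olfactory sensory neurons (OSN), from mice with a tetO construct and profiled their total RNA. The construct made mCherry and either HyperTRIBE, an RNA-editing domain (HT), or Mex3a joined to that domain (MexHT), Mex3a being an RNA-binding protein. In the mice with genotype gg8tTA; OMPtTA the sorted red cells were immature and mature OSN by label, with 6 MexHT and 3 HT libraries, and mCherry-negative cells of the same mice gave 5 and 3 libraries. In the gg8tTA mice, all with MexHT, the red cells were immature OSN by label (2 libraries) and the negative cells gave 2 libraries. All groups carry a tTA driver and a tetO construct, and none lacks the editing domain. Only MexHT and HT with both drivers can be compared for the construct, since no HT library with gg8tTA alone was used here. The library names carry a different date for the gg8tTA mice than for the gg8tTA; OMPtTA mice, so driver and date cannot be told apart, and no test was made across the tables. The gg8tTA driver is active in immature OSN and OMPtTA in mature OSN. Negative cells are not free of OSN transcripts: Omp, the classical marker of mature OSN, stood at 46.9 to 2159 TPM in the negative libraries with both drivers and at 1937 and 3561 TPM in those with gg8tTA.

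Odorant receptors are G protein-coupled receptors, and a mature OSN transcribes a single receptor gene from a single allele. Class II receptors are the larger of the classes in mammals and lie in clusters on many chromosomes, and the choice of receptor depends on Lhx2, Ldb1 and Ebf proteins that bring receptor enhancers together. Once translated, a receptor needs Rtp1 and Rtp2 to leave the endoplasmic reticulum, and it signals through the G protein subunit encoded by Gnal, the adenylyl cyclase encoded by Adcy3 and the channel encoded by Cnga2. In bulk samples fewer cells with a receptor and less receptor RNA per cell cannot be told apart.

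All 225 genes mapped to chromosome 2 in GRCm38 (mm10), but in 2 clusters parted by 20.9 Mb. The first holds 203 genes, Olfr988 to Olfr1272, over 4.93 Mb at chr2:85352995-90282573, and the second 22 genes, Olfr1275 to Olfr1301, over 0.524 Mb at chr2:111230853-111755189. The label of a single large cluster therefore holds for 203 of the 225. For description the first cluster was divided by gene order into 4 segments: Olfr988 to Olfr1057 (51 genes), Olfr1058 to Olfr1137 (51), Olfr1138 to Olfr1212 (51) and Olfr1213 to Olfr1272 (50). In GENCODE M21 and RefSeq, 224 are protein-coding and 1, Olfr1010, is a transcribed pseudogene. The lengths implied by TPM and whole reads ran from 918 to 8087 bases with a median of 2635, and 170 of 225 were over 1500 bases, so the gene models behind the deposited values take in more than the coding sequence of most receptors.

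The receptors are related in sequence but not near-identical over their transcripts. Of 223 genes with a GENCODE transcript, 170 shared at least 1 stretch of 50 bases with another receptor, but none shared 50% or more of its 50-base stretches, and the median was 2.80%. The coding sequences ran from 582 to 1116 bases (median 939). The Asp-Arg-Tyr triplet that ends the third membrane helix of these receptors was found in 194 of 223. The stretches around it are shown for 4 genes that lead the comparisons below, in the strand of the gene, with the 3 codons in capitals, from GENCODE M21 on GRCm38. Olfr1226 lies at chr2:89193100-89194032, Olfr1178 at chr2:88391249-88392220, Olfr1240 at chr2:89439270-89440343 and Olfr1228 at chr2:89248721-89249692.
Olfr1226: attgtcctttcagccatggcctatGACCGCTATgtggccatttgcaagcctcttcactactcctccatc
Olfr1178: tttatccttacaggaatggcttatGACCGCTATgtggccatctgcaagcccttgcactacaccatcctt
Olfr1240: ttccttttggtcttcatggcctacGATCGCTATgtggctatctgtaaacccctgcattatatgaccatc
Olfr1228: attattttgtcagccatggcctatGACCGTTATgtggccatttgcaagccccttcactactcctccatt
Over these 69 bases Olfr1226 and Olfr1228 were 89.9% identical, Olfr1226 and Olfr1178 78.3%, and Olfr1240 63.8% to Olfr1226 and to Olfr1178. The codons in capitals in Olfr1226 were the commonest set, used by 72 genes, among 21 sets.

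A transcription start could be placed for 17 of the 225 genes (18 windows), because most RefSeq receptor models begin at the coding sequence. The window from 250 bases before to 50 after the start was searched on either strand for 2 motifs. The first, the letters TAATNA, is the core recognised by LIM-homeodomain proteins such as Lhx2. It occurred in 15 of 18 windows (83.3%), against 61.6% of 73 windows of other odorant receptors and 26.5% of 32851 windows of all genes. The second, a site of Ebf proteins, occurred in 0 of the 18 windows and 0 of the 73. It was found in 0.904% of the 32851 windows, and at that rate 18 windows are too few to show a difference. The 250 bases before the start are shown for the 2 genes with a placed start that come up among the results, chosen after their values were seen, with TAATNA on either strand in capitals (RefSeq, GRCm38.p6, strand of the gene, which is the minus strand). Olfr1213 (chr2:88980268-88980517) had 3 matches and Olfr1182 (chr2:88449122-88449371) had 0.
Olfr1213: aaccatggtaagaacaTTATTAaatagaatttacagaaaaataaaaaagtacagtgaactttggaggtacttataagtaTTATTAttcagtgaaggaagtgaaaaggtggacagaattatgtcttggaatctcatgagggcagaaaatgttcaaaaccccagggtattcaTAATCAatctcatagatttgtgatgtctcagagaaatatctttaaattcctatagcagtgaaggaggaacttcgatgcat
Olfr1182: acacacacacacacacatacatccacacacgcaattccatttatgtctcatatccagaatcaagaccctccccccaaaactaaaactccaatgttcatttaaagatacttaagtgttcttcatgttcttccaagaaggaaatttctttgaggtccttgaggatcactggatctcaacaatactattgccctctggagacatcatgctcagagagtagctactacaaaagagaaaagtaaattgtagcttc
Both genes were called lower in MexHT OSN than in MexHT negative cells, in the comparison described below.

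The recovered depth was 7407076 to 15180717 reads per library over the 21 libraries. Mex3a, carried by the MexHT construct, stood at 328 to 1271 TPM in MexHT OSN with both drivers and at 23.96 to 61.5 TPM in HT OSN. Xist was at 55.3 TPM or more in all 11 MexHT libraries with both drivers, and at 0.14 TPM or less in both fractions of HT mice 1 and 3, so construct and Xist level were largely confounded. HT mouse 3 stood apart from HT mice 1 and 2 in receptor level in both fractions, and beside the results that rest on it the values with 1 of its libraries left out are given.

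In every mouse with both fractions, the summed level of the 225 receptors was lower in the red OSN than in the negative cells, although by little in some. In MexHT OSN it was 185, 201, 201, 80.5, 94.4 and 74.9 TPM in replicates 1 to 6, a mean of 139 ± 62.0 TPM (SD, n = 6). The MexHT negative cells had 324, 384, 202, 245 and 125 TPM in replicates 1 to 5, a mean of 256 ± 102 TPM (n = 5). In the 5 mice with both, OSN over negative ratios were 0.570, 0.522, 0.993, 0.329 and 0.755, so that mouse 3 was level. HT OSN had 512, 511 and 107 TPM (377 ± 233, n = 3) and HT negative cells 553, 693 and 178 TPM (474 ± 266, n = 3), with ratios of 0.925, 0.737 and 0.605. HT mice 1 and 2 exceeded every MexHT library with both drivers in either fraction, whereas HT OSN replicate 3 lay inside the MexHT OSN range. The mean in MexHT OSN minus that in HT OSN was -237 TPM, and -372 TPM without HT OSN replicate 3. The mean in HT OSN minus that in HT negative cells was -97.9 TPM, and 36.7 TPM without the same library. The gg8tTA OSN had 108 and 10.4 TPM and their negative cells 536 and 757 TPM, with ratios of 0.202 and 0.0137. Both gg8tTA ratios were below all 8 ratios of the mice with both drivers, which come from another table.

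**Figure D1:**
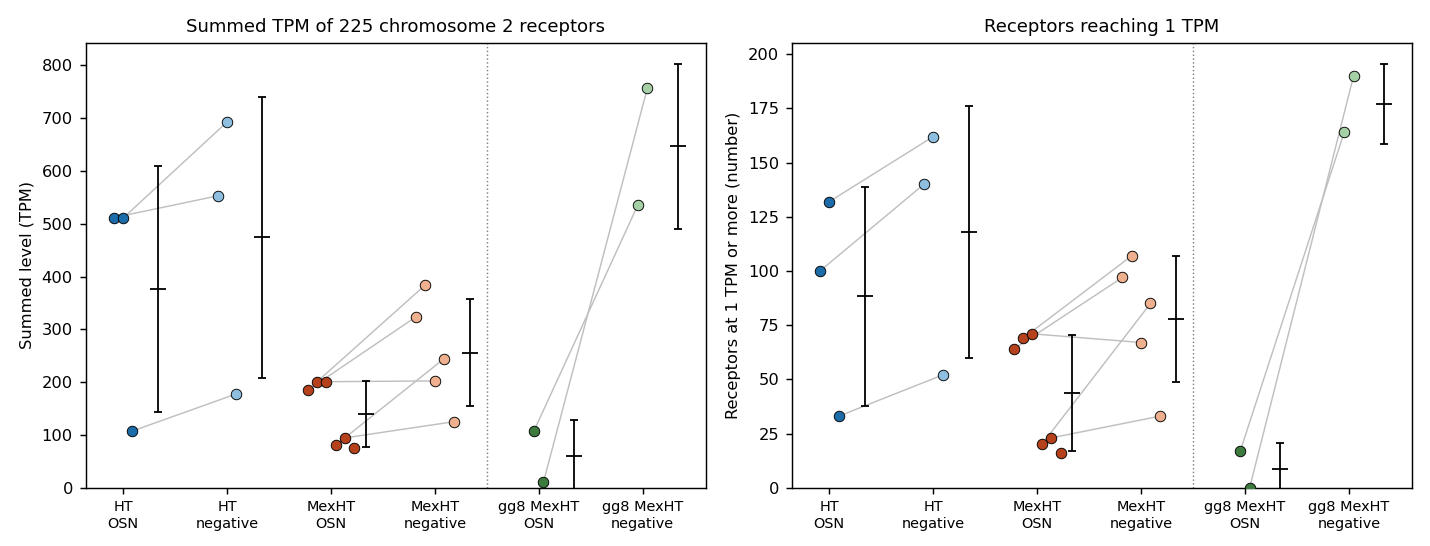
Left, summed TPM of the 225 receptors; right, number of them at 1 TPM or more; each point is a library, grey lines join the fractions of a mouse, and black bars are the mean ± SD. The gg8 MexHT OSN libraries, at 108 and 10.4 TPM, lie far below their negative cells at 536 and 757 TPM, and HT replicate 3 lies low in both fractions.

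The number of receptors at 1 TPM or more followed the sums. It was 64, 69, 71, 20, 23 and 16 in MexHT OSN, 97, 107, 67, 85 and 33 in MexHT negative, 100, 132 and 33 in HT OSN, and 140, 162 and 52 in HT negative cells. MexHT OSN therefore fell into 3 libraries with many receptors at this level and 3 with few, and mouse 3 had slightly more in OSN (71) than in negative cells (67). In gg8tTA OSN 17 and 0 receptors reached 1 TPM, against 164 and 190 in their negative cells. Detection of any read was far wider, from 159 to 219 receptors in the libraries with both drivers, and 94 of 225 had a value above 0 in all 17 of them. In gg8tTA OSN replicate 2, 84 receptors had a read, and 52.3 did when thinned to the lowest library total. Reads per receptor were few: the highest single value was 23.1 TPM or 664 reads, for Olfr1226 in HT OSN replicate 1, and only 3 receptors were at 1 TPM or more in all 17 libraries.

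As a share of the TPM of all odorant receptors, the 225 genes held similar portions in most libraries. The share was 15.3 to 17.3% in 5 MexHT OSN libraries and 9.91% in replicate 4, 13.5 to 17.1% in HT OSN, 15.6 to 19.7% in MexHT negative and 16.98 to 18.1% in HT negative cells. In MexHT OSN replicate 4 the chromosome 11 receptor Olfr464 alone held 10.6% of receptor TPM, and without that gene the share was 11.1%. The OSN share was below the negative share of the same mouse in 9 of 10 mice, the exception being gg8tTA mouse 1 (13.4% against 12.8%). The 10 highest receptors of each library held 20.04% ± 2.14 of the 225 genes' TPM in MexHT OSN (SD, n = 6), 22.1% ± 3.14 in MexHT negative cells (n = 5), 27.3% ± 6.49 in HT OSN (n = 3) and 24.7% ± 4.14 in HT negative cells (n = 3).

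The 10 receptors with the highest mean level over the 4 groups with both drivers were Olfr1226, Olfr1196, Olfr1264, Olfr1178, Olfr1301, Olfr1271, Olfr1228, Olfr1176, Olfr1263 and Olfr1213, at 5.06 to 7.26 TPM. All lie in the last 2 segments of the first cluster except Olfr1301, the last gene of the second. Each encodes a class II odorant receptor, and no ligand is stated for any of them here.

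**Figure D2:**
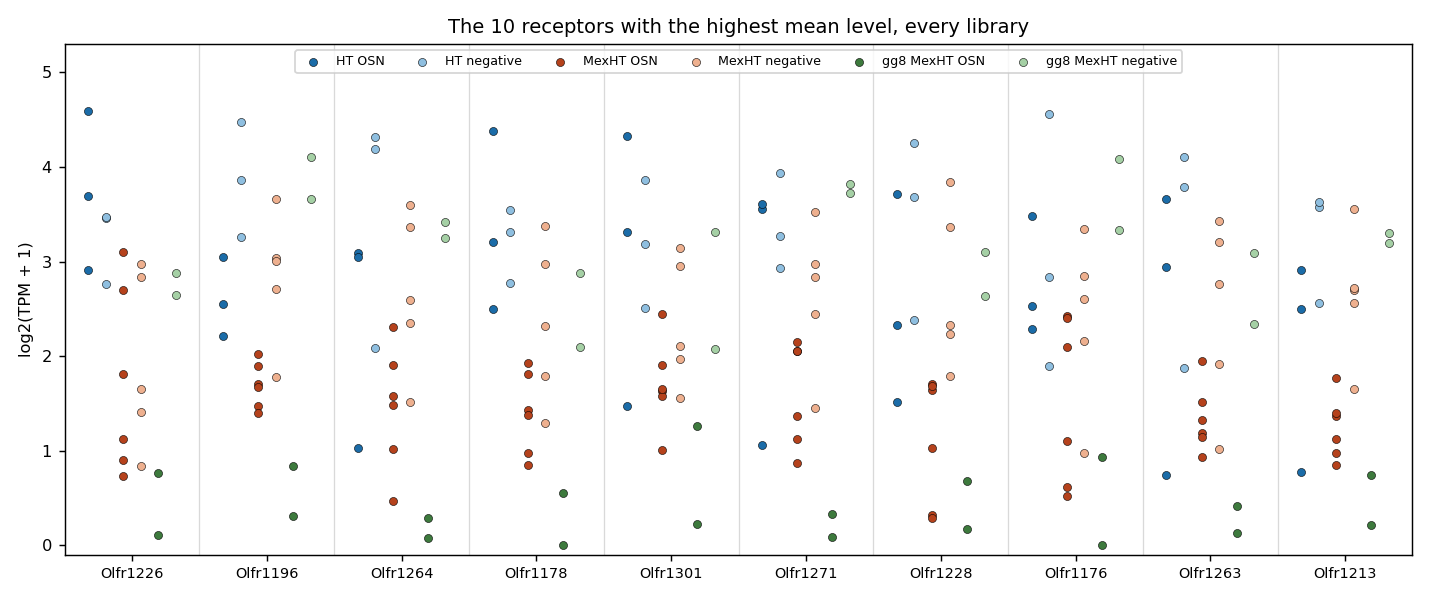
Level, as log2(TPM + 1), of the 10 receptors with the highest mean over the 4 groups with both drivers; each point is a library, coloured by group. In every one of the 10 both gg8 MexHT OSN libraries lie below both gg8 MexHT negative libraries, while HT and MexHT OSN overlap for most of them. The same order of the gg8 libraries was seen for 137 of the 142 receptors tested in gg8tTA, so it does not set the 10 apart. Its share over all genes is not given here.

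MexHT OSN were set against HT OSN to see which receptors differ when Mex3a is joined to the domain. Of the 225 receptors, 68 averaged 1 TPM or more over the 9 libraries and were tested; they are not all members, since low receptors drop out. In limma, 13 were lower in MexHT OSN at an adjusted p under 0.05 and 0 were higher, where 16.8% of all 16067 genes tested were called lower and 19.9% higher, so 13 of 68 is near the background. With no filter on low values 20 of 224 were called lower, where 14.1% of all genes were. The median log2 difference of the 68 was -0.91, against 0.03 for all genes and -0.84 for 305 other odorant receptors, 79 of which were called lower and 1 higher. MexHT OSN lay wholly below HT OSN for 7 of the 68, against 16.9% of all genes.

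Olfr1178 was the receptor with the smallest adjusted p. It stood at 2.52, 2.80, 0.963, 0.800, 1.70 and 1.59 TPM in MexHT OSN (6 to 25 reads) and at 19.9, 8.25 and 4.65 TPM in HT OSN (39 to 212 reads). The groups did not overlap, and the log2(TPM + 1) difference was -1.97 ± 0.40 (SE; limma adjusted p 0.0045). Olfr1240 had the largest difference, -2.02 ± 0.54 (limma adjusted p 0.0157), at 0.0799 to 1.02 TPM (median 0.669) in MexHT OSN and 12.4, 8.16 and 0.855 TPM in HT OSN. Replicates 1 and 2 of HT OSN were high for it, and replicate 3 lay inside the MexHT range. Olfr1226 stood at 0.660 to 7.57 TPM (median 1.84) in MexHT OSN and 23.1, 11.96 and 6.50 TPM in HT OSN, a difference of -2.004 ± 0.57 (limma adjusted p 0.0205) with 1 MexHT library above the lowest HT library. Olfr1228, 89.9% identical to Olfr1226 over the printed stretch, had a difference of -1.41 ± 0.51 and did not pass (limma adjusted p 0.0529). The other 10 called receptors were Olfr1182, Olfr1229, Olfr1220, Olfr1196, Olfr1206, Olfr1281, Olfr1256, Olfr1124, Olfr1122 and Olfr1246, with differences from -1.65 (Olfr1281) to -0.91 (Olfr1196).

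These calls rested on single HT libraries. Without HT OSN replicate 3 there were 51 receptors called lower, 11 of the 13 among them, while 14.6% of all genes were. Without replicate 1 there were 3, with 11.2% of all genes, and without replicate 2 there were 2, with 11.9%. With the Xist level as a covariate 0 receptors were called, while 0.778% of all genes were called lower. Of the 68 receptors 21 had an unadjusted p under 0.05, where 3384 of all 16067 genes did. The median of the 68 was then -1.53, and all 68 were below 0. Olfr1178 was called in every other alternative run.

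Other genes of the receptor pathway are given as context, from lists chosen with earlier results of these data known. Of 12 mature OSN markers 10 were lower and 0 higher in MexHT OSN (median -1.33), of 10 immature OSN markers 7 were higher and 0 lower (0.94), and of 6 immune markers 6 were lower. The summed mature marker level was 2315 to 6868 TPM in MexHT OSN and 9436 to 14402 TPM in HT OSN, and the summed immune level 233 to 449 TPM and 1015 to 4055 TPM. Of 9 signalling genes, 8 of which are also among the mature markers, 7 were lower and 0 higher, Adcy3 by -2.72 ± 0.38 on the log2 scale (limma adjusted p 0.000765). Of 4 export genes 2 were lower, Rtp1 (-0.89 ± 0.31, limma adjusted p 0.0432) and Ric8b (-1.45 ± 0.23, 0.00142), while Rtp2 did not pass (-0.77 ± 0.31, 0.0738). Of 12 receptor choice genes 6 were higher, among them Lhx2 (0.57 ± 0.11, limma adjusted p 0.00325) and Ldb1 (0.30 ± 0.10, 0.033). The 2 lower ones were Ebf2 (-0.74 ± 0.17, limma adjusted p 0.00863) and Ebf4 (-0.85 ± 0.18, 0.00551), while Ebf1 and Ebf3 did not pass (0.982 and 0.745). Whether the mix of neuron stages had a part in the receptor difference was not tested.

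Between the negative cells, MexHT against HT, 103 of the 225 receptors were tested and 0 were called in limma, 10 having an unadjusted p under 0.05. Of all 16860 genes 0% were called and 3465 had an unadjusted p under 0.05. Voom on recovered reads also called 0 of the receptors. Without HT negative replicate 3, 66 of 108 had an unadjusted p under 0.05 (median -0.97), where 5082 of all 16867 genes did. Without HT negative replicate 2, 1 of 87 did (median -0.36), where 1383 of all 16759 genes did. Both runs called 0 receptors. Of the 103, 96 had a difference below 0 (median -0.62), and the lowest was Olfr1226 at -1.29 ± 0.50 (limma adjusted p 0.224), which stood at 6.14, 6.87, 1.66, 2.15 and 0.791 TPM in MexHT and 10.0, 10.1 and 5.81 TPM in HT negative cells. The 2 groups overlapped for it.

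The comparison of MexHT OSN with MexHT negative cells asks how red neurons differ from the remaining epithelium. The fit had no mouse term, and OSN replicate 6 had no negative library. Here 58 receptors were tested. In limma 19 were lower in OSN and 1 was higher, where 27.6% of all 16522 genes were called lower and 35.8% higher, so the lower calls are near the background and the higher call is below it. With no filter on low values 42 of 225 were lower, where 21.9% of all genes were. The median of the 58 was -0.64 and that of all genes 0.16, which median-of-ratios scaling moved to 0.03 for all genes and -0.71 for the receptors. Other odorant receptors had a median of -0.48, with 89 lower and 8 higher of 299. OSN lay wholly below negative cells for 4 of the 58, against 19.6% of all genes.

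The largest difference was that of Olfr1228. It stood at 2.13, 2.27, 2.22, 0.245, 1.04 and 0.226 TPM in MexHT OSN and at 9.33, 13.3, 2.45, 4.03 and 3.72 TPM in MexHT negative cells. Every OSN library was below every negative one, and the log2(TPM + 1) difference was -1.60 ± 0.41 (SE; limma adjusted p 0.00467). Olfr1213, whose upstream bases are printed above, stood at 0.964, 2.41, 1.58, 0.797, 1.64 and 1.17 TPM in OSN and 5.49, 10.7, 5.61, 4.89 and 2.15 TPM in negative cells. Only negative replicate 5 fell within the OSN range for it, and the difference was -1.39 ± 0.30 (limma adjusted p 0.00134). Olfr1264, Olfr1112, Olfr1222 and Olfr1240 followed, with differences from -1.22 (Olfr1112) to -1.15 (Olfr1240). Across the 18 alternatives run, 9 of the 20 receptors were called wherever they were tested: Olfr1228, Olfr1213, Olfr1264, Olfr1112, Olfr1222, Olfr1240, Olfr1196, Olfr1018 and Olfr1251. Counts of calls moved by over 1.5 times without MexHT negative replicate 1 (13), without negative replicate 2 (9) and without negative replicate 5 (33). With the mouse as a block 21 receptors were called, 17 of the 20 among them.

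Olfr1026, in the first segment of the cluster, was the receptor called higher. Its levels were 1.96, 1.46, 3.91, 2.17, 0.262 and 2.39 TPM in MexHT OSN (1 to 10 reads) and 0.621, 0.295, 0.692, 0.927 and 0.364 TPM in negative cells (1 to 3 reads). Replicate 5 of OSN was below all negative libraries, and the other OSN libraries were above all of them. The difference was 0.84 ± 0.30 (limma adjusted p 0.0263), the call was lost with voom on these few reads, with all 4 groups in 1 fit, and without MexHT negative replicate 2 or 5 or MexHT OSN replicate 3 or 6. In gg8tTA OSN the same gene was at 2.14 and 0.222 TPM against 3.63 and 7.81 TPM in negative cells.

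In the same comparison immature markers were higher in the red cells, while most mature markers did not pass. Of 10 immature markers 8 were higher, with summed levels of 5344 to 6171 TPM in OSN and 2051 to 3894 TPM in negative cells. Of 12 mature OSN markers 2 were higher and 0 lower (median 0.80), a smaller share than the 35.8% of all genes, and their summed levels overlapped, at 2315 to 6868 TPM in OSN and 624.7 to 7396 TPM in negative cells. Among other lists, 9 of 12 receptor choice genes were higher and 1 was lower, with Lhx2 higher by 1.16 ± 0.16 (limma adjusted p 4.11e-05). All 3 basal and all 5 connective tissue and vessel markers were lower, the latter from 10675 to 23326 TPM summed in negative cells to 124 to 237 TPM in OSN. The part of cell composition in the receptor difference was not tested.

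In HT mice, OSN against negative cells, 118 receptors were tested and 0 were called in limma, 5 having an unadjusted p under 0.05 and voom on recovered reads calling 0. Of all 17027 genes 11.3% were called and 5821 had an unadjusted p under 0.05. The median of the 118 was -0.31, but its sign rested on single libraries: 0.14 without HT OSN replicate 3, 0.04 without HT negative replicate 2 and -0.65 without HT negative replicate 3. Olfr1196, at 3.62, 7.26 and 4.86 TPM in OSN and 13.6, 21.2 and 8.55 TPM in negative cells, had the smallest p (-1.26 ± 0.37, limma adjusted p 0.0729). Both fractions come from the same mice, and with the mouse as a block 10 receptors were lower and 0 higher, where 15.9% of all genes were called lower: Olfr1264 (-1.15 ± 0.19, limma adjusted p 0.0154), Olfr1196, Olfr1252, Olfr1112, Olfr1099, Olfr1213, Olfr1222, Olfr1018, Olfr1228 and Olfr1211. The interaction between construct and fraction, fitted to 17 libraries, tested 85 receptors. It called 0 of them in limma, where 12.4% of all genes were called, and 0 by voom. An unadjusted p under 0.05 was found for 1 of the 85 in limma, and for 4689 of all 16785 genes. Olfr1178 (-1.11 ± 0.64, limma adjusted p 0.275) and Olfr1240 (-1.17 ± 0.75, 0.331) were both below 0 there. Without HT OSN replicate 3 the interaction called 3 of 89 receptors lower, Olfr1016, Olfr1181 and Olfr1240, where 3.78% of all genes were, so their share is near the background. The construct difference was therefore not shown to differ between fractions.

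In the gg8tTA mice, immature OSN by label against negative cells, most receptors were at lower levels in the red cells. Of 142 receptors tested 35 were lower in limma and 0 higher, where 7.2% of all 16490 genes were called lower and 1.12% higher, so 35 of 142 is above that share. The 142 passed mainly through the negative cells, where 164 and 190 of the 225 receptors reached 1 TPM against 17 and 0 in OSN, so they had to differ and their count and median are a description. With no filter on low values, 219 of 225 had a difference below 0, with a median of -1.37, and 21 were called lower, where 4.24% of all genes were. Other odorant receptors had a median of -1.96, with 258 of 680 lower among those that passed, against a median of -1.73 for the 142. The size of the differences depends on the pseudocount, since OSN reads were few: with 0.1 in place of 1 the median was -3.61 and 6 of 142 receptors were called, where 3.51% of all genes were lower, so the count is then near the background.

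Olfr1271, near the end of the first cluster, led with -3.57 ± 0.49 (SE; limma adjusted p 0.0205), at 0.256 and 0.0620 TPM in OSN (6 and 2 reads) and 12.2 and 13.2 TPM in negative cells (313 and 314 reads). Olfr1196 stood at 0.793 and 0.240 TPM against 16.2 and 11.6 TPM (-3.30 ± 0.52, limma adjusted p 0.0256). Olfr1176 stood at 0.915 and 0 TPM against 9.11 and 16.0 TPM. These 3 had the highest mean of the 225 in the gg8tTA table. That rank rests mainly on the negative cells, so the lower OSN levels of these 3 are a description. Olfr1112 (-3.49), Olfr1018 (-3.27), Olfr1264 (-3.15) and Olfr1222 (-3.09) were also called. These 4 were also called lower in MexHT OSN with both drivers, against that table's own negative cells, where 27.6% of all genes were called lower. Olfr1271 and Olfr1196 were called lower there too, while Olfr1176 was not (limma adjusted p 0.133).

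With 2 libraries a side, these calls depend on each library: without OSN replicate 1 there were 82 of 159 receptors called, where 16.3% of all genes were lower. The calls were all lost without OSN replicate 2 or either negative library. Median differences of the tested receptors were then -1.37 without OSN replicate 2, -2.07 without negative replicate 1 and -1.86 without negative replicate 2. The OSN libraries differed between themselves, with 108 and 10.4 TPM of receptors, Omp at 164 and 53.8 TPM, and Mex3a at 460 and 1632 TPM. Replicate 2 had 13917 genes at 1 TPM or more, the fewest of the 21 libraries, and Gap43, an immature OSN marker, at 93.8 TPM against 672 TPM in replicate 1. The part of these differences in the result was not tested. Of 12 mature OSN markers 8 were lower and 0 higher in the red cells (median -4.08), and of 9 signalling genes, 8 of them shared with that list, 7 were lower, whereas of 10 immature markers 1 was higher and 0 lower (median -0.04). Receptor TPM per 100 TPM of Omp was 65.9 and 19.3 in OSN replicates 1 and 2, and 27.7 and 21.3 in negative replicates 1 and 2. Whether the stage of the neurons had a part in the receptor result was not tested.

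**Figure D3:**
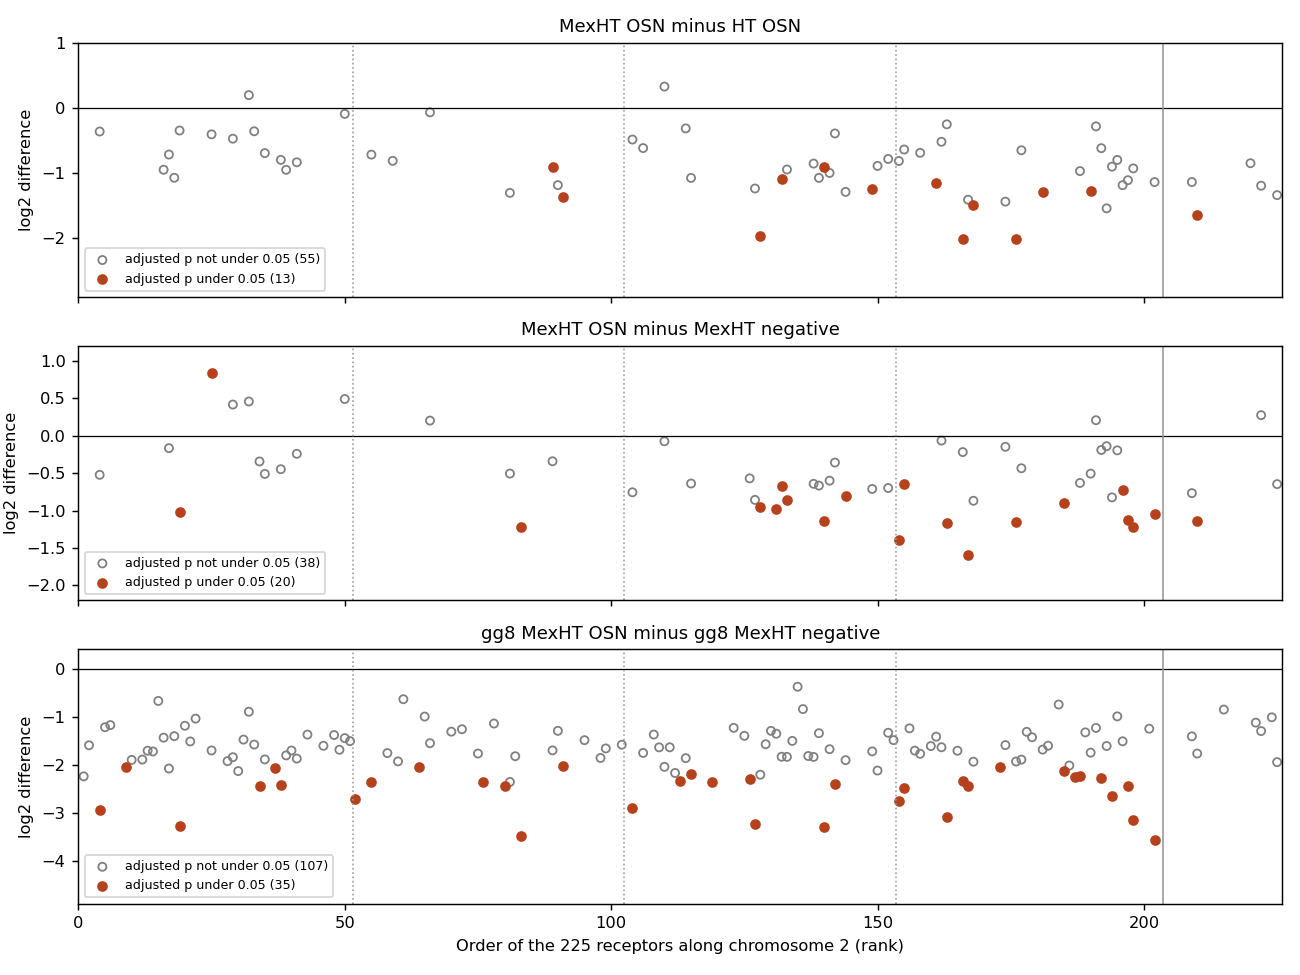
Log2(TPM + 1) difference of each tested receptor against its order along chromosome 2, in 3 comparisons; filled points have a limma adjusted p under 0.05, dotted lines part the segments of the first cluster and the solid line the second cluster. In MexHT OSN against negative cells, 16 of the 19 lower calls lie in the last 2 segments of the first cluster and the call above 0, Olfr1026, in the first.

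Position along the cluster was then described, with no test, since the members were divided after other results were known. For MexHT OSN against negative cells, 1 of 11 tested receptors was lower in the first segment, 1 of 4 in the second, 6 of 17 in the third, 10 of 22 in the fourth and 1 of 4 in the second cluster. The medians were -0.24, -0.42, -0.70, -0.69 and -0.71. They depend on the filter: with a mean of at least 0.25 TPM they were -0.20, -0.27, -0.46, -0.32 and -0.25, with 2 of 40, 8 of 40, 13 of 46, 14 of 47 and 3 of 21 lower. For MexHT OSN against HT OSN the lower calls were 0 of 14, 2 of 7, 4 of 18, 6 of 24 and 1 of 5. In gg8tTA the medians were -1.71, -1.76, -1.82, -1.76 and -1.30, with 6 of 38, 7 of 24, 8 of 35, 14 of 38 and 0 of 7 lower. Fewer receptors of the second segment passed the filter on low values than of the third and the fourth.

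The shares of the segments within the 225 receptors' own TPM do not depend on that filter. The first segment held a larger share in OSN than in negative cells of the same mouse in 10 of 10 mice. In MexHT mice 1 to 5 the OSN shares were 19.6, 17.2, 27.0, 21.4 and 18.6% and the negative shares 11.2, 13.6, 18.1, 18.2 and 12.6%. In HT mice they were 14.2, 20.2 and 12.4% against 12.4, 16.3 and 8.28%, and in gg8tTA mice 23.2 and 31.5% against 23.0 and 24.1%. The differences ran from 0.195 to 8.91 percentage points, the smallest in gg8tTA mouse 1. With the 3 highest receptors of that segment in OSN (Olfr1031, Olfr1026 and Olfr1046) left out, the share was larger in 8 of 10 mice, not in MexHT mouse 4 or gg8tTA mouse 1. The third and the fourth segment each held a smaller share in OSN in 8 of 10 mice, and the second cluster a larger share in 8 of 10. No interval or test is given for these counts.

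**Figure D4:**
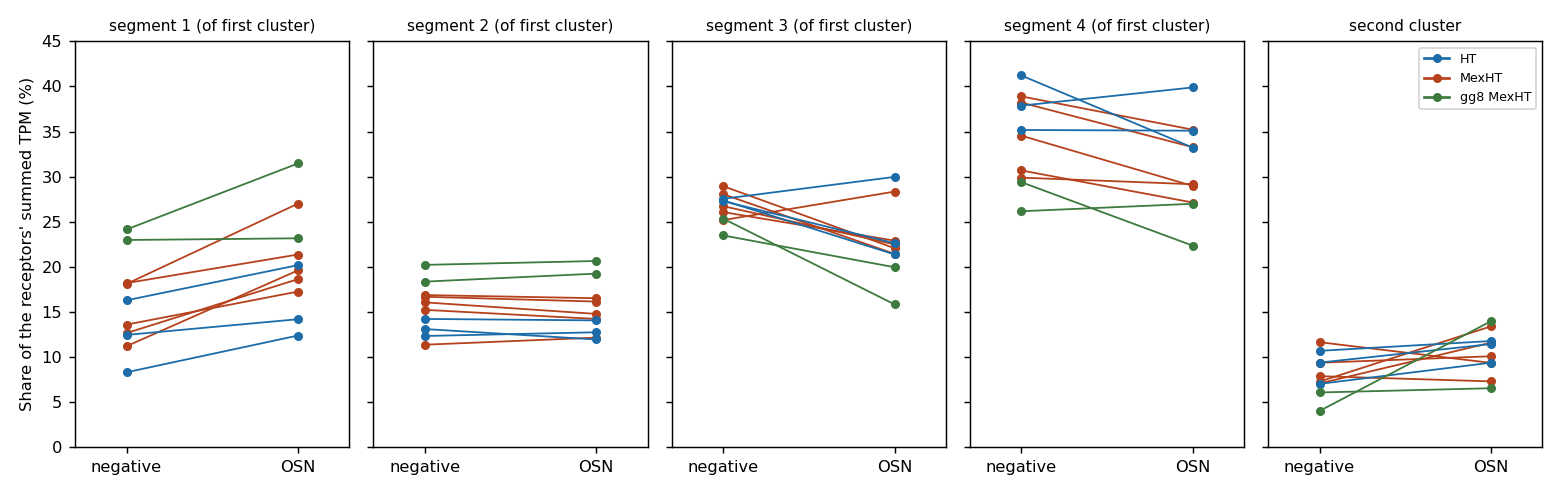
Share of the 225 receptors' summed TPM held by each segment of the first cluster and by the second cluster, in negative cells and OSN; each line is a mouse, coloured by genotype. All 10 lines rise in the first segment, from 8.28 to 24.1% in negative cells to 12.4 to 31.5% in OSN.

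Single receptors varied between mice. Of 102 receptors averaging 1 TPM or more over the paired libraries, 62 (60.8%) were lower in OSN in at least 8 of 10 mice. Among 500 other odorant receptors at that level 52.6% were. Olfr1226 was higher in OSN in 5 mice and lower in 5. Receptors passed this filter partly through the negative cells, where the summed level was higher, so these counts are a description. With no filter, 44.9% of the 225 were lower in at least 8 mice, against 44.4% of 864 other receptors. Of the 102, 40 (39.2%) were lower in OSN in at least 9 of 10 mice, against 35.8% of the others, and 19 (18.6%) were lower in all 10, against 16.6%. With no filter the shares were 25.3% of the 225 against 28.6% of the others in at least 9 mice, and 10.7% against 12.15% in all 10. In the other direction 1 receptor of the 102 (0.98%), Olfr1034 of the first segment, was higher in OSN in 8 mice, against 1.8% of the 500 other receptors in at least 8. None of the 102 was higher in 9 or more, against 0.2% of the other receptors. Olfr1034 was named after its values were seen. Its limma difference was 0.46 ± 0.25 in MexHT (adjusted p 0.132) and -0.90 ± 0.56 in gg8tTA (adjusted p 0.309), neither past the threshold. Its gene overlaps the pseudogene Olfr1035-ps1, and the strand setting of the counting is not given in the sources used here.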

How the data were processed

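The authors deposited TPM values per gene symbol, in a table of 17 libraries with both drivers and a table of 4 with gg8tTA. Per the labels' protocols, papain-dissociated cells were extracted with TRIzol and 10 ng of RNA entered Takara's SMARTer Pico kit for stranded total RNA. FastQC, cutadapt, STAR, bedtools and mm10 are named in the submitters' processing notes, and the counting program, annotation, strand setting and treatment of multi-mapping reads are not given in the sources used here. Reads from related receptors may be split or dropped.

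Symbols turned into dates (27) were left out. Within a gene, values were whole multiples of a step once each library was scaled, which gave whole reads for 99.9958% of genes in the first table and 99.8553% in the second. These served as depth and for voom, and the labels describe no molecular identifiers. Models for the 5 comparisons and the interaction came from limma 3.58.1 (R 4.3.3), with a mean trend in its empirical Bayes step. The response was log2(TPM + 1), the genes all those averaging 1 TPM or more over the libraries compared, and the p-values two-sided, with Benjamini-Hochberg adjustment over all of them, a threshold of 0.05 and each fit kept within a table. The fit was run on simulated data in which only genes above a minimum of reads were changed, so it does not cover receptors with few reads. Differences on this scale understate the change of low genes.

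Groups came from the genotype and cell type labels. Membership follows the symbols, but the set and the lists were proposed with earlier results of these data known. Members named are the 10 with the highest mean over the groups with both drivers, the 6 largest changes in each direction past the threshold in each comparison, and the 3 highest in gg8tTA. Members outside this rule (Olfr1182, Olfr1220, Olfr1206, Olfr1256, Olfr1122, Olfr1246, Olfr1251, Olfr1252, Olfr1099, Olfr1211, Olfr1016, Olfr1181, Olfr1034, Olfr1031 and Olfr1046) were named after their values were seen. Near-identical copies were looked for as shared 50-base stretches of transcripts, in place of the protein identity first planned. OSN and negative cells of a number are the same mouse per the labels, and their deviations correlated at -0.109 to 0.421 (MexHT), 0.174 to 0.475 (HT) and 0.0178 (gg8tTA). Same-numbered negative cells of MexHT and HT also deviated together (0.231 to 0.418), without a shared mouse in the labels. Editing sites were not analysed here. Alternatives covered the pseudocount, the filter, the scaling, the Xist level, the mouse or number as a block, all groups in 1 fit and each library left out.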

Additional observations from a re-analysis of the deposited data

Results flagged for a closer look

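In MexHT OSN replicate 4 the 225 receptors held 9.91% of odorant receptor TPM, while the other 5 libraries of the group held 15.3 to 17.3%, and the gap was large for the range of the group. In MexHT OSN replicate 5 the third segment of the first cluster held 28.3% of the 225 receptors' TPM, against 21.4 to 22.9% in the other 5. These were 2 of 52 groups of values examined in this way, and chance flags about 1 group in 20.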

How the results depend on the processing

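For MexHT OSN against HT OSN (13 receptors called), the count was 20 with no filter on low values, 0 with the Xist covariate and 2 to 51 when a library was left out. Same-numbered MexHT and HT OSN share only a number (correlations of deviations 0.115, 0.132 and -0.228, and 1 of 3 numbers matched best with itself), and the replicate block gave 2. For MexHT OSN against negative cells (20), it was 43 with no filter, 41 with a mean of at least 0.25 TPM and 9 to 33 with a library left out. For HT OSN against negative cells (0), the replicate block gave 10, all 4 groups in 1 fit gave 4 and leaving out a library gave 0 to 1. For gg8tTA (35), pseudocount 0.1 gave 6, no filter gave 21 and leaving out a library gave 0 to 82; with 1 library left on a side, that library is assumed to vary like the others. For the interaction (0), no filter gave 1 and leaving out a library 0 to 3. For MexHT against HT negative cells 0 were called in every alternative run, and the replicate block changed no other call count by over 1.5 times. Differences in the number of receptors at 1 TPM or more became -8.83 (any value above 0) and -7.69 (thinned to the lowest total) for MexHT against HT OSN, 1.80 and 3.78 for the negative cells, where the sign turned, and -78.5 and -99.5 for gg8tTA. Voom on recovered reads, the block and left-out libraries for the interaction, and the share without Olfr464 were chosen after seeing the data; voom replaced a planned count test that cannot be applied to TPM and was not run. The causes of these shifts were not tested. In 190 of 225 receptors no library reached 100 reads, which limits all single values.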
